A study of Mus musculus with 96 samples.

Results

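Hox cluster genes were followed through ChIP-seq of hippocampal nuclei. The members were 38 genes of the Hoxa, Hoxb, Hoxc and Hoxd clusters, and a peak was counted as a Hox peak when the deposited annotation assigned it to one of them, at any distance. This gave 35 Hox peaks among 22815 consensus peaks. Of the 38 genes, 24 had at least 1 peak and 14 had none. The mice were wild type (WT), lacked Mutyh (Mutyh-/-), lacked Ogg1 (Ogg1-/-) or lacked both (DKO, double knockout), were male and 6 months old, and all had a C57BL/6N background. Mutyh and Ogg1 encode DNA glycosylases, which remove mispaired or oxidised bases from DNA. The labels name no Cre or promoter for the deletions. Nuclei from pooled hippocampi had been sorted by the neuronal nuclear protein NeuN into NeuN+ (neuronal) and NeuN- (non-neuronal) fractions. H3K4me3, H3K27me3 and Suz12 were each profiled in both fractions with 3 replicates per genotype, so each of the 6 tables held 12 libraries. The p-values rest on the spread between these replicate pools only. In the tables with Hox peaks, this spread was shared over the peaks of the table and was not that of the single peak.

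Hox genes encode homeodomain transcription factors that specify position along the body axis, and their order within a cluster follows the order in which they are used from head to tail. In the forebrain, to which the hippocampus belongs, they are known to be silent, and they are the classical targets of Polycomb repression. Polycomb repressive complex 2 (PRC2) trimethylates lysine 27 of histone H3 (H3K27me3), Suz12 is one of its core subunits, and H3K4me3 marks the start sites of genes that are active or poised.

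The values are normalised signal, that is the reads in a window of 401 bp on a peak divided by a factor for the library. A library held 6652 to 33035 reads in peaks for Suz12 and 23794 to 52344 for H3K27me3 in NeuN+ nuclei, and 19132 to 78250 for H3K27me3 in NeuN- nuclei, with library medians of 1 to 17 reads per peak. These totals include repeat peaks on chromosome 2 annotated to Lrrc4c. In the same order, these peaks took 14.5% to 60.9%, 0.0% to 52.8% and 20.6% to 80.3% of a library's reads in peaks. Without them, a library held 5445 to 21742, 21138 to 47745 and 7654 to 23715 reads in peaks. At this depth, a single Hox peak rested on few reads. As a check of the sort, 9 of 10 neuron markers had an H3K4me3 peak in NeuN+ nuclei and 0 of 10 in NeuN- nuclei. Markers of oligodendrocytes, astrocytes, microglia and vascular cells had an H3K4me3 peak for 1 of 9, 0 of 6, 0 of 6 and 0 of 6 genes in NeuN- nuclei and for 1 of 9, 2 of 6, 0 of 6 and 0 of 6 in NeuN+ nuclei. By H3K4me3, the markers of non-neuronal cells were thus mostly absent in NeuN- nuclei and no more frequent there than in NeuN+ nuclei. These H3K4me3 peaks gave the label NeuN- no support, with 3270 peaks called there against 12628. H3K27me3 peaks lay at 2 of 10 neuron markers in NeuN+ and 4 of 10 in NeuN- nuclei, and at 5 of 9 and 1 of 9 oligodendrocyte markers. For astrocytes these were 0 of 6 and 1 of 6, for microglia 1 of 6 in both and for vascular cells 2 of 6 in both. The paper reports its own checks of the purity of the sorted nuclei. Fewer nuclei that carry a mark and less of the mark per nucleus cannot be told apart in these samples.

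Hox peaks were found in 3 of the 6 tables. Suz12 in NeuN+ nuclei held 19 of its 775 peaks at Hox genes (2.45%), H3K27me3 held 9 of 4132 in NeuN+ nuclei (0.218%) and 7 of 1698 in NeuN- nuclei (0.412%). No Hox peak was listed among 12628 H3K4me3 peaks in NeuN+ nuclei, 3270 H3K4me3 peaks in NeuN- nuclei or 312 Suz12 peaks in NeuN- nuclei. In Suz12 NeuN-, the Lrrc4c repeat took 59.3% to 81.4% of a library's reads in peaks, with library medians of 2 to 11 reads per peak. Promoters held 17.9% of its peaks, against 60.8% in Suz12 NeuN+. The lack of a Suz12 Hox peak in NeuN- nuclei is thus no measure of a difference between the fractions. A gene without a peak is a gene to which no consensus region was annotated at this depth. A region annotated to another transcript can still lie over such a gene, as was the case at Hoxa11, Hoxc5 and Hoxc10.

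Stretches of 240 bases from the middle of 4 Hox peaks are shown here, on the plus strand of GRCm38, because the base composition of the peaks differed between Suz12 and H3K27me3. They are the peaks with the highest mean signal of Suz12 (Hoxa13, chr6:52260179-52260418) and of H3K27me3 (Hoxb6, chr11:96299262-96299501) in NeuN+ nuclei, an intergenic H3K27me3 peak in NeuN+ nuclei annotated to Hoxc4 (chr15:103057388-103057627) and the intergenic H3K27me3 peak in NeuN- nuclei annotated to Hoxb1 (chr11:96382415-96382654). Capitals mark CG dinucleotides, the CpG sites at which DNA is methylated.
Hoxa13: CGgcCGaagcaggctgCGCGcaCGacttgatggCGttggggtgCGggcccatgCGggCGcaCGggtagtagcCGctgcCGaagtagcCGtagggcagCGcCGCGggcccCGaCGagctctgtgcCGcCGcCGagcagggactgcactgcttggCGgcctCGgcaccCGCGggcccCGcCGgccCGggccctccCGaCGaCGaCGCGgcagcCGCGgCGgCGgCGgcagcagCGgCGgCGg
Hoxb6: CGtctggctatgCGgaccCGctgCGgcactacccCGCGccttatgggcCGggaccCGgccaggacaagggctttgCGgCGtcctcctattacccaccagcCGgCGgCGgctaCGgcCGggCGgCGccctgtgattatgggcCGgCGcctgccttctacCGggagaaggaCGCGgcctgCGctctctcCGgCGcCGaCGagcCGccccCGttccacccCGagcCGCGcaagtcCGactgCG
Hoxc4: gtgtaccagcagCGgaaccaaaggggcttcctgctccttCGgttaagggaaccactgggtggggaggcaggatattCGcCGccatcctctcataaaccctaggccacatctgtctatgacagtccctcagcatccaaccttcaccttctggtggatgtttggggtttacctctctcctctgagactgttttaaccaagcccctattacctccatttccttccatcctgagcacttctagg
Hoxb1: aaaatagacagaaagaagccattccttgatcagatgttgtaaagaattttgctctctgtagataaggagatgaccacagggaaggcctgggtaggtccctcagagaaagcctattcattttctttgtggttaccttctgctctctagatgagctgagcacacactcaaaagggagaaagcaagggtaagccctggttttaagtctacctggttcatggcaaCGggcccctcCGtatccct
These stretches held 41 CpG sites at Hoxa13, 34 at Hoxb6, 4 at Hoxc4 and 2 at Hoxb1.

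**Figure D1:**
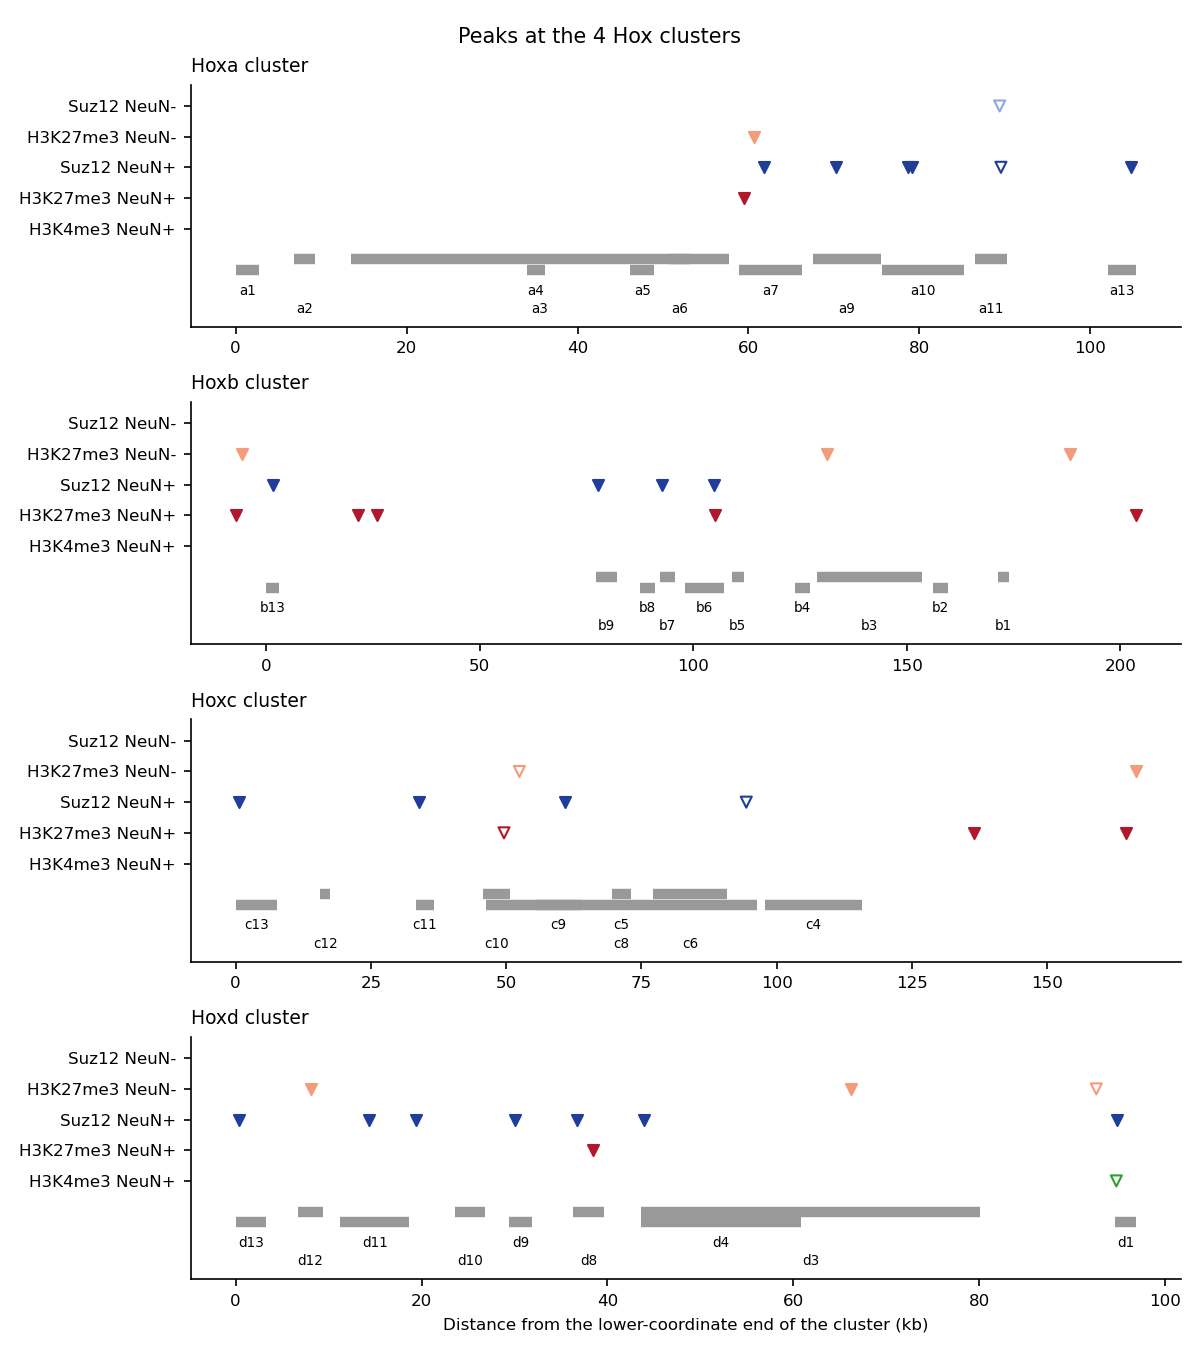
Positions of peaks along the Hoxa, Hoxb, Hoxc and Hoxd clusters, in kb from the end of each cluster with the lower coordinate. Grey bars are genes, filled triangles are peaks annotated to a Hox gene and open triangles are peaks in the cluster annotated to another transcript. Filled triangles of Suz12 in NeuN+ nuclei lie over the end of the Hoxa, Hoxb and Hoxc clusters that holds the genes of higher number, while an open triangle over Hoxc5 lies near the other end of the Hoxc cluster, and several H3K27me3 peaks of the Hoxb and Hoxc genes lie outside the clusters.

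Most Suz12 Hox peaks of NeuN+ nuclei were annotated to posterior genes of the clusters. Hox genes are numbered by paralog group, and groups 1 to 3 are called anterior, groups 4 to 8 central and groups 9 to 13 posterior here. A Suz12 peak was annotated to 12 of 16 posterior genes, 5 of 15 central genes and 1 of 7 anterior genes. In the Hoxa, Hoxb and Hoxc clusters, the lowest numbered genes to which a Suz12 peak was annotated were Hoxa7, Hoxb6 and Hoxc9. By position, a further Suz12 peak lay over Hoxc5 (chr15:103015292-103015692), a central gene on the anterior side of Hoxc9, and was annotated to the microRNA gene Mir615. Its mean signal was 8.92 ± 5.95 (SD, n = 12). The Hoxd cluster differed, with Suz12 peaks at 7 of its 9 genes including Hoxd1, which acts in pain-sensing neurons, and Hoxd4. All 19 Suz12 Hox peaks lay inside the clusters. These counts are a description of peaks called by the authors, with no test.

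The Suz12 Hox peaks were promoter peaks rich in CpG sites. Of the 19 peaks, 16 (84.2%) lay within 1 kb of a start site, against 52.6% of all Suz12 peaks in NeuN+ nuclei, and 0 were distal intergenic, against 20.9%. The exceptions were Hoxb13 at 1522 bp from the start, Hoxc9 in an exon at 4761 bp and Hoxd10. That of Hoxd10 lay 3988 bp upstream, in an intron of a neighbouring transcript. At homeobox genes outside the clusters, 66.7% of 75 Suz12 peaks lay within 1 kb of a start site and 8.0% were distal intergenic. The median number of CpG sites per window was 41 (range 13 to 70), against 31 over all Suz12 peaks, 39 over those in promoters and 35 over 75 Suz12 peaks at homeobox genes outside the clusters.

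Among themselves, the Suz12 Hox peaks differed in mean signal over the 12 libraries by less than 4-fold. The order ran from Hoxa13 with 20.0 ± 12.7 (SD, n = 12), a gene of limb and genital tract patterning, through Hoxd9 with 18.3 ± 10.3, one Hoxa10 peak with 17.6 ± 11.4 and Hoxd11 with 17.2 ± 9.51, down to Hoxb13 with 6.23 ± 7.12, Hoxc11 with 6.01 ± 5.44 and Hoxd10 with 5.51 ± 4.44. Neighbours in this order differed by far less than their SD. The median over the Hox peaks was 10.8, against 9.74 over all Suz12 peaks and 11.1 over the homeobox peaks outside the clusters, and 12 of 19 Hox peaks lay above the median of the table. By cluster, the median was 15.0 for Hoxd, 13.4 for Hoxa, 10.8 for Hoxc and 8.67 for Hoxb. Across the 19 Hox peaks, mean signal and CpG number had a Spearman correlation of 0.65 and a Pearson correlation of 0.74. Over the 694 Suz12 peaks with less than 50% of masked bases, the Spearman value was 0.62 and the Pearson value 0.04. In both cases the points share libraries and base composition.

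Hoxa13 carried the highest Suz12 signal of the Hox peaks (chr6:52260099-52260499, promoter within 1 kb, sequence above). Its normalised signal in replicates 1, 2 and 3 was 9.39, 30.7 and 37.6 in WT and 3.28, 17.6 and 28.4 in Mutyh-/-. It was 4.95, 40.0 and 13.2 in Ogg1-/- and 11.05, 29.2 and 14.2 in DKO. The 4 genotypes overlapped, and replicate 1 was the lowest in every genotype.

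This held for most Suz12 Hox peaks of NeuN+ nuclei. In Suz12 NeuN+, replicate 1 had the lowest of the 3 values in 62 of 76 combinations of Hox peak and genotype (81.6%), and in 62.7% of combinations over all peaks. The signal summed over the 19 Hox peaks lay between 45.1 and 153 in the 4 replicate 1 libraries, between 259 and 377 in replicate 2 and between 194 and 297 in replicate 3, so replicate 1 did not overlap the others. For H3K27me3 in NeuN+ nuclei, replicate 1 was the lowest in 63.9% of Hox combinations and 44.6% over all peaks. In NeuN- nuclei it was replicate 2, in 57.1% of Hox combinations and 49.9% over all peaks. The labels do not say what a replicate number stands for, and its part in the Hox values was not tested.

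**Figure D2:**
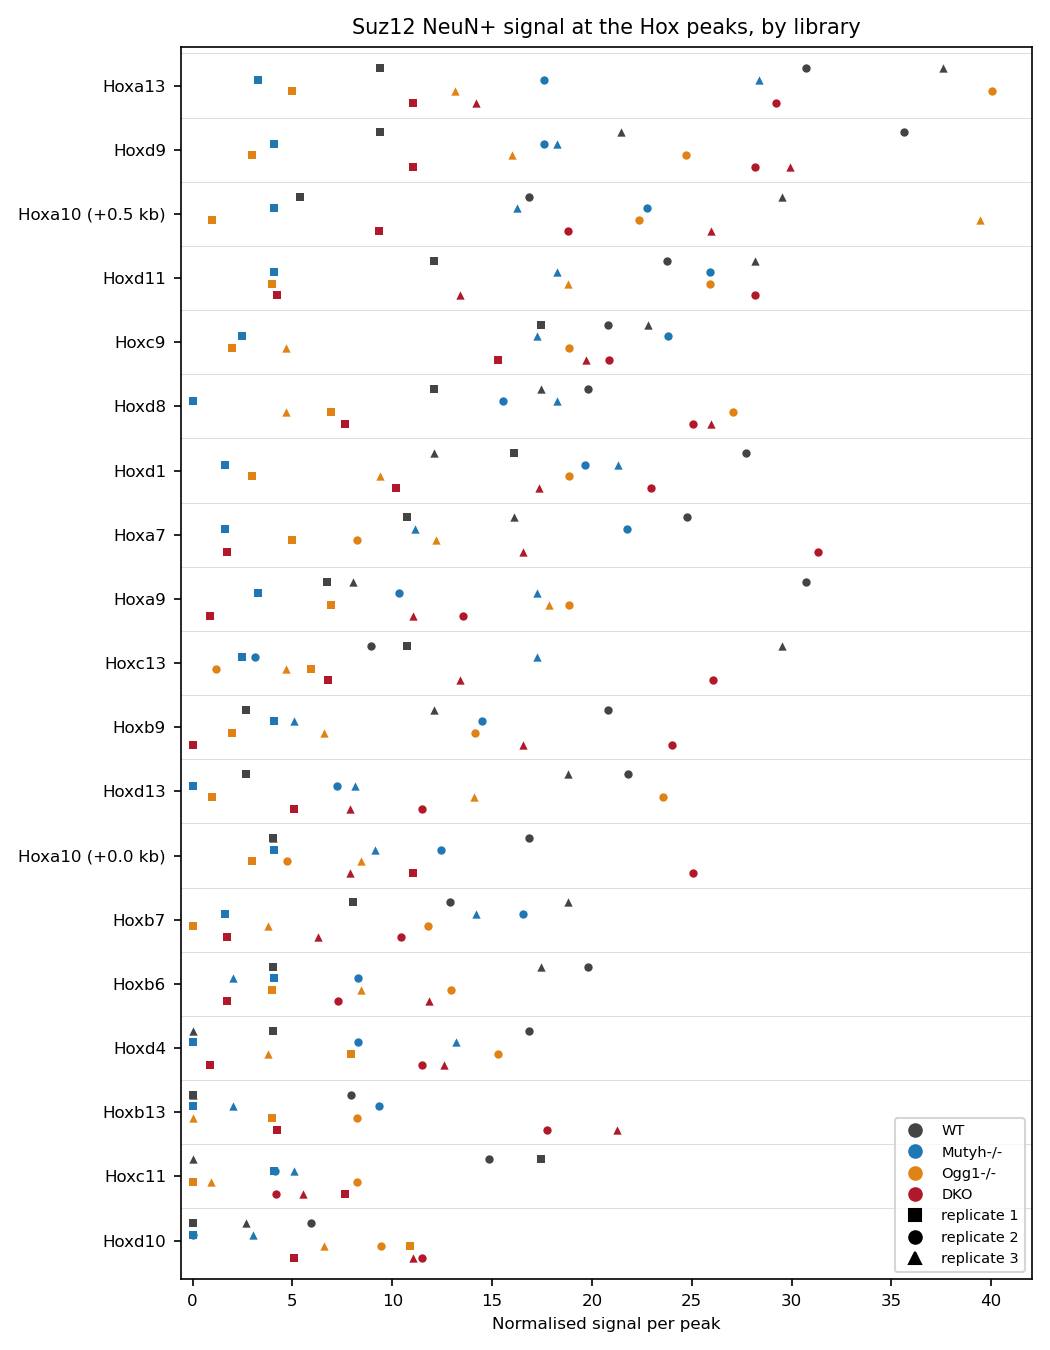
Normalised Suz12 signal in NeuN+ nuclei (x axis, reads per peak divided by a factor for the library) at each of the 19 Hox peaks (rows, by mean), with 1 point per library. Colours give the genotype and symbols the replicate; the squares of replicate 1 sit at the left of most rows, while the 4 genotypes overlap. For Hoxa10, the label gives the distance from the start site in kb.

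Most H3K27me3 windows annotated to Hox genes lay outside promoters. Of those inside the clusters, however, 3 of 5 in NeuN+ and 3 of 4 in NeuN- nuclei were promoter peaks. In NeuN+ nuclei, 6 of the 9 Hox peaks were distal intergenic (66.7%, against 43.0% of all H3K27me3 peaks) and 3 were in promoters (33.3%, against 26.5%). Hoxb13, Hoxc4 and Hoxb1 took all 6 distal peaks, which lay 6899 to 51128 bp from the annotated start, and 4 of them were outside the clusters. In NeuN- nuclei, 3 of 7 were distal intergenic (42.9%, against 26.7% of all H3K27me3 peaks there), and all 3 lay outside the clusters. Promoter peaks were also 3 (42.9%, against 47.7%), each more than 1 kb from the start. The other peak lay in intron 1 of 3 of Hoxb3. The median number of CpG sites per window was 4 in NeuN+ and 6 in NeuN- nuclei, against 5 and 8 over all H3K27me3 peaks and 41 at the Suz12 Hox peaks. Mean signal was above the median of the table at 7 of 9 Hox peaks in NeuN+ nuclei and at 5 of 7 in NeuN- nuclei.

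Hoxb6, an axial patterning gene of the middle of the cluster, held Suz12 and H3K27me3 at the same place. Its H3K27me3 peak (chr11:96299182-96299582) and its Suz12 peak (chr11:96299051-96299451), both at the promoter in NeuN+ nuclei, overlapped by 270 bp. This was the only overlap between the window of an H3K27me3 Hox peak and that of a Suz12 Hox peak. It also had 45 CpG sites per window, the most of any H3K27me3 Hox peak. The H3K27me3 signal was 9.86, 19.9 and 12.1 in WT, 9.13, 19.9 and 10.99 in Mutyh-/-, 9.91, 20.9 and 33.9 in Ogg1-/- and 13.1, 19.4 and 24.1 in DKO. Its mean of 16.9 ± 7.46 (SD, n = 12) was the highest of the 9 Hox peaks, and the genotypes overlapped. The Suz12 signal was 4.02, 19.8 and 17.4 in WT, 4.10, 8.29 and 2.03 in Mutyh-/-, 3.96, 12.96 and 8.46 in Ogg1-/- and 1.70, 7.30 and 11.8 in DKO. Here too, the genotypes overlapped, and no knockout was called against WT for either mark.

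Elsewhere the windows of 401 bp lay near each other without overlapping. The windows do not show how far the called regions reached, so these regions may have touched. At Hoxd8, the H3K27me3 and Suz12 peaks of NeuN+ nuclei were 1232 bp apart. At Hoxa7, the H3K27me3 peak of NeuN- nuclei was 744 bp from the Suz12 peak of NeuN+ nuclei and 800 bp from the H3K27me3 peak of NeuN+ nuclei that is annotated to Hoxa2. Hoxb1, Hoxb13 and Hoxc4 had H3K27me3 peaks in both fractions. At Hoxb13 and Hoxc4, the closest of their windows were 1048 and 1335 bp apart, and no pair of windows overlapped.

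H3K27me3 at the members with peaks in both fractions varied widely between libraries. At the upstream Hoxb13 peaks, the value over 12 libraries ran from 2.09 to 20.6 in NeuN+ nuclei (chr11:96187017-96187417) and from 0 to 15.9 in NeuN- nuclei (chr11:96188465-96188865). WT had 12.0, 7.75 and 6.89 in the NeuN+ libraries and 10.6, 1.66 and 3.46 in the NeuN- libraries. Mutyh-/- had 7.10, 7.74 and 8.99 in NeuN+ and 15.4, 3.17 and 3.47 in NeuN-, so the knockout overlapped WT in both fractions. Ogg1-/- had 6.94, 2.09 and 20.6 in NeuN+ and 14.03, 0 and 7.15 in NeuN-. DKO had 8.74, 10.7 and 15.2 in NeuN+ and 8.67, 0.925 and 15.9 in NeuN-. Both of these also overlapped WT.

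At the paired Hoxc4 peaks downstream of the cluster, the means were 4.85 ± 3.45 (SD, n = 12) in NeuN+ and 4.11 ± 4.52 (SD, n = 12) in NeuN- nuclei. In NeuN+ nuclei (chr15:103085523-103085923), WT had 4.38, 13.3 and 6.03, Mutyh-/- 4.06, 5.53 and 2.00, Ogg1-/- 3.96, 4.18 and 2.06 and DKO 0, 3.88 and 8.82. The 3 Ogg1-/- values lay below all 3 WT values, and the other genotypes overlapped WT. In NeuN- nuclei (chr15:103087258-103087658), WT had 0, 0 and 5.77, Mutyh-/- 5.76, 8.45 and 0, Ogg1-/- 2.63, 4.09 and 15.5 and DKO 3.47, 3.70 and 0, and all genotypes overlapped WT. Hoxa7 held the highest H3K27me3 mean of the Hox peaks in NeuN- nuclei (chr6:52216046-52216446), 8.24 ± 6.96 (SD, n = 12). It had 6.62, 4.98 and 9.23 in WT, 16.3, 7.39 and 0 in Mutyh-/-, 20.2, 1.63 and 9.54 in Ogg1-/- and 19.1, 2.77 and 1.14 in DKO. WT was the narrowest group and lay inside the range of each knockout.

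**Figure D3:**
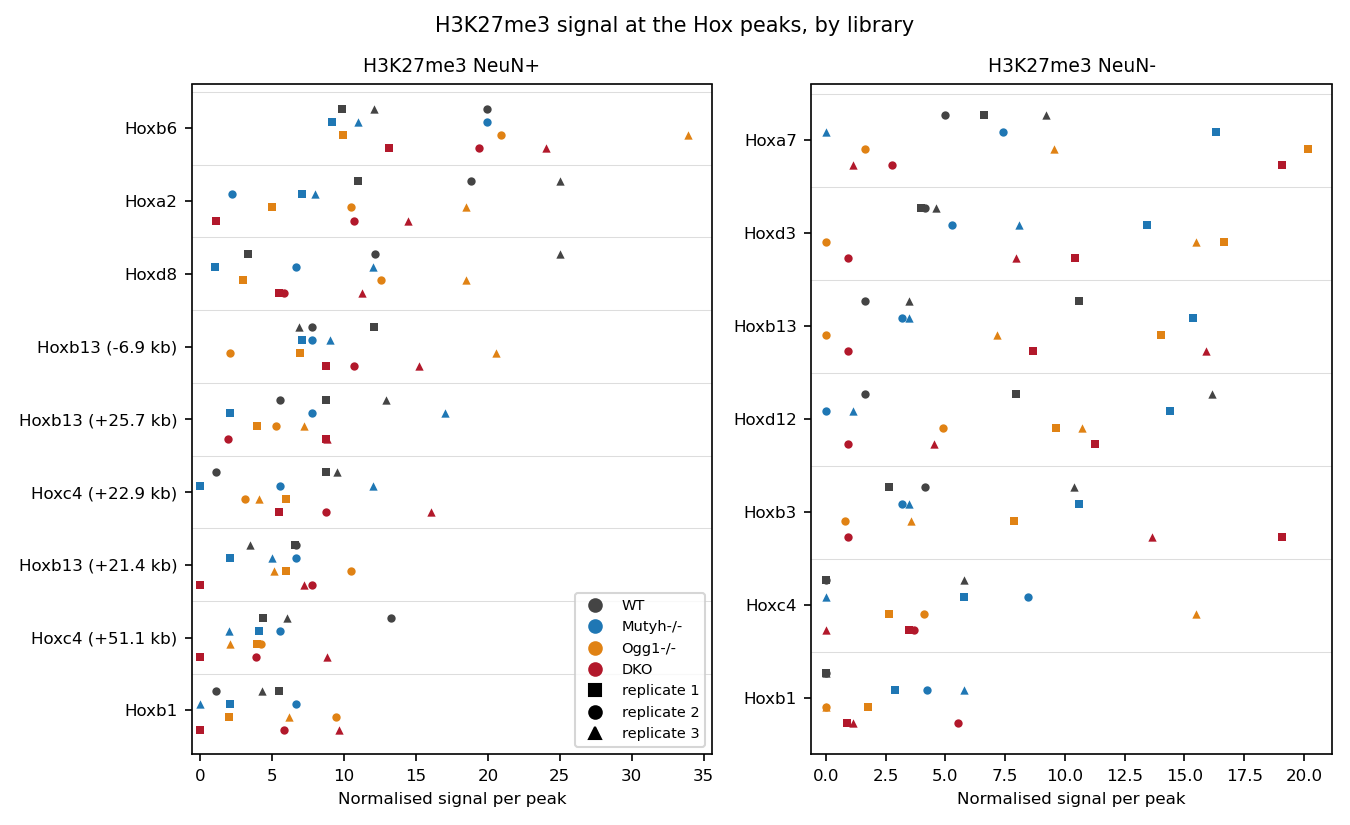
Normalised H3K27me3 signal (x axis, reads per peak divided by a factor for the library) at the 9 Hox peaks of NeuN+ nuclei (left) and the 7 of NeuN- nuclei (right), with 1 point per library; each panel has its own x axis. For genes with several peaks, the label gives the distance from the start site in kb. At the peak annotated to Hoxa2 the 3 Mutyh-/- points lie below the 3 WT points, and at Hoxb1 in NeuN- nuclei the 3 WT points lie at 0.

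H3K4me3 reached the clusters at 1 place. The only H3K4me3 peak inside any of the 4 clusters lay at the end of the Hoxd cluster in NeuN+ nuclei (chr2:74762873-74763273) and was annotated to Haglr, a non-coding RNA that starts beside Hoxd1. It overlapped the Suz12 peak of Hoxd1 (chr2:74762928-74763328) by 346 bp, so the Hoxd1 promoter was the single Hox site with a peak of both. The H3K4me3 signal was 18.0, 15.6 and 8.62 in WT, 14.2, 11.9 and 14.9 in Mutyh-/-, 13.1, 13.3 and 12.3 in Ogg1-/- and 20.3, 7.24 and 15.2 in DKO. The mean of 13.7 ± 3.60 (SD, n = 12) lay at percentile 13.5 of the H3K4me3 peaks of NeuN+ nuclei, and all genotypes overlapped. Differences from WT on the log2(signal + 1) scale were 0.01 in Mutyh-/-, -0.06 in Ogg1-/- and -0.03 in DKO, none of them called, where 0.911%, 0.966% and 1.46% of all peaks were.

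Whether PRC2 marks at Hox genes differed in mice without a glycosylase was tested peak by peak. A peak was called where the unadjusted limma p was under 0.05 and the knockout differed from WT by more than 0.5 on the log2 scale, which is the criterion of the study for a differentially enriched region (DER). In H3K27me3 NeuN+, 1 of 9 Hox peaks was called in Mutyh-/- (3.78% of all peaks), 0 in Ogg1-/- (3.82%) and 0 in DKO (3.36%). In Suz12 NeuN+, 0 of 19 were called in Mutyh-/- (5.16%), 0 in Ogg1-/- (3.74%) and 1 in DKO (2.58%). The fit left out the replicate number, and with it as a block the Suz12 count in Ogg1-/- rose, as did that over all peaks. In H3K27me3 NeuN-, 1 of 7 was called in Mutyh-/- (2.0%), 0 in Ogg1-/- (4.18%) and 0 in DKO (2.3%). Together, 3 of 105 tests at Hox peaks were called (2.86%), 2 higher and 1 lower in the knockout, beside 686 of 19815 tests over all peaks of these tables (3.46%). The share at Hox peaks was near that background. At an adjusted p under 0.05, limma called 0 Hox peaks, beside 0.121%, 0.0484% and 0.0% of all peaks for the 3 knockouts in H3K27me3 NeuN+. In Suz12 NeuN+ these shares were 0.129%, 0.0% and 0.0%, and in H3K27me3 NeuN- 0.0% throughout. edgeR on the recovered reads also called 0 at this threshold and 3 at an unadjusted p under 0.05. The 3 knockouts share the WT libraries.

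The H3K27me3 peak of NeuN+ nuclei annotated to Hoxa2 was called lower in Mutyh-/-, as were 2.78% of all peaks. Its assignment to Hoxa2, a gene of hindbrain and branchial arch patterning, follows a read-through transcript, and the peak (chr6:52214846-52215246) lies over exons of Hoxa7, far from the Hoxa2 gene body at chr6:52162417-52164831. The signal was 10.95, 18.8 and 24.99 in WT and 7.10, 2.21 and 7.99 in Mutyh-/-. It was 4.95, 10.5 and 18.5 in Ogg1-/- and 1.09, 10.7 and 14.4 in DKO. All 3 Mutyh-/- values lay below all 3 WT values, while Ogg1-/- and DKO overlapped WT. The log2 fold change of Mutyh-/- was -1.57 (SE 0.76), the limma p was 0.0377 and the adjusted p 0.998. The call was lost without WT replicate 2 (-1.52), WT replicate 3 (-1.32) or Mutyh-/- replicate 2 (-1.10).

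The intergenic H3K27me3 peak of NeuN- nuclei annotated to Hoxb1, a gene of hindbrain segment identity, was called higher in Mutyh-/-, as were 1.71% of all peaks (chr11:96382335-96382735, 16077 bp from the annotated start). All 3 WT libraries had 0 reads there, so under the rule for a consensus region (called in 2 or more of 3 replicates) the peak would have been listed through a knockout group, which favoured a value above WT before any test. The signal was 2.88, 4.22 and 5.78 in Mutyh-/-, which is 12 reads in all, 1.75, 0 and 0 in Ogg1-/- and 0.867, 5.55 and 1.14 in DKO. Mutyh-/- and DKO lay above WT in every library, and Ogg1-/- overlapped it. Against an assumed 3 reads over the WT group, the mean was 3.90-fold higher in Mutyh-/- and 2.28-fold higher in DKO. These ratios rest on 12 and 8 reads and are no lower bound on an effect. Over all peaks of this table, the median log2 fold change was 0.29 in Mutyh-/- and 0.41 in DKO. The limma p for Mutyh-/- was 0.0219 with an adjusted p of 0.998, at a fitted log2 difference of 2.37 (SE 1.03) that depends on the added constant of 1. Without Mutyh-/- replicate 3, the difference was 2.17 and the call was lost. The Hoxb1 peak had the lowest mean of the 7 Hox peaks in this table, 1.85 ± 2.22 (SD, n = 12). The H3K27me3 peak of NeuN+ nuclei annotated to Hoxb1 had means of 3.63 ± 2.26 (SD, n = 3) in WT and 2.89 ± 3.40 in Mutyh-/-. They were 5.85 ± 3.72 in Ogg1-/- and 5.15 ± 4.85 in DKO.

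The Suz12 peak of Hoxb13 was called higher in DKO, as were 1.68% of all peaks (chr11:96195838-96196238, 1522 bp from the start). Hoxb13, the last gene of the Hoxb cluster, acts in the tail region and the prostate. The signal was 0, 7.92 and 0 in WT and 4.25, 17.7 and 21.3 in DKO. It was 0, 9.32 and 2.03 in Mutyh-/- and 3.96, 8.24 and 0 in Ogg1-/-. Replicates 2 and 3 of DKO lay above all other libraries, but replicate 1 of DKO lay inside the WT range, so the groups overlapped. With 0 reads in 2 of 3 WT libraries, this peak too would have been listed through another genotype. The log2 fold change was 2.65 (SE 1.26), the limma p was 0.0351 and the adjusted p 0.999. The call was lost without WT replicate 1 (2.12), WT replicate 3 (2.12), DKO replicate 2 (2.38) or DKO replicate 3 (2.26), and edgeR gave 2.56 with a p of 0.120.

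Values that did not overlap between a knockout and WT were found at some Hox peaks, as at the share of all peaks given in brackets. All 3 knockout values fell outside the WT range for 1 of 9 Hox peaks in each single knockout in H3K27me3 NeuN+ (9.15% of all peaks in Mutyh-/- and 9.17% in Ogg1-/-) and for 0 in DKO (9.08%). In Suz12 NeuN+, this was the case for 0 of 19 in Mutyh-/- (7.61%), 2 in Ogg1-/- (8.26%) and 0 in DKO (5.68%). In H3K27me3 NeuN-, it was the case for 2 of 7 in Mutyh-/- (6.6%), 0 in Ogg1-/- (9.78%) and 1 in DKO (6.77%). Beside the peaks already described, these were Hoxc13 and Hoxd10 for Suz12 in Ogg1-/- and Hoxd3 for H3K27me3 in Mutyh-/- NeuN- nuclei, none of them called.

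For Hoxc13, a gene of hair and nail development, Suz12 was 10.7, 8.91 and 29.5 in WT and 5.95, 1.18 and 4.70 in Ogg1-/-, below WT throughout. For Hoxd10, a gene of limb and lumbar patterning, it was 0, 5.94 and 2.68 in WT and 10.9, 9.42 and 6.58 in Ogg1-/-, above WT throughout. For Hoxd3, H3K27me3 in NeuN- nuclei was 3.97, 4.15 and 4.61 in WT and 13.5, 5.28 and 8.09 in Mutyh-/-, above WT throughout. These 3 peaks were named after their values were seen.

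**Figure D4:**
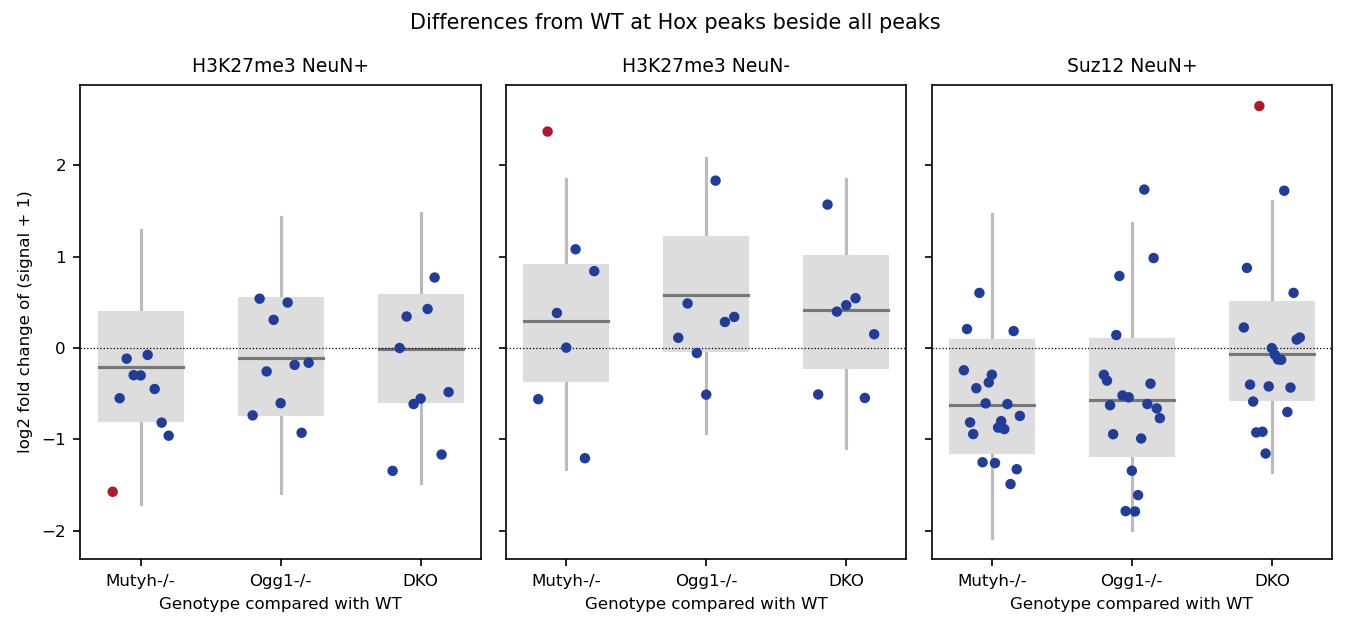
Difference of each knockout from WT (y axis, log2 fold change of signal + 1) at the Hox peaks of the 3 tables that held any. Each point is a Hox peak, red where called; the grey box, line and whiskers give the quartiles, the median and the range from percentile 5 to 95 over all peaks of the table. The Hox points spread over the range of all peaks, and 3 of the 105 points are red.

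The direction of the Hox peaks is given beside the shift of each table. In Suz12 NeuN+, 16, 15 and 12 of 19 Hox peaks had values below 0 for the log2 fold change in Mutyh-/-, Ogg1-/- and DKO, with medians of -0.74, -0.61 and -0.13, against -0.63, -0.57 and -0.06 over all 775 peaks. Rescaling by TMM factors, which assume that most peaks do not change, moved the median of all peaks by 0.54, 0.48 and 0.15 and that of the Hox peaks to -0.14, -0.07 and 0.05, so the sign flipped in DKO. In H3K27me3 NeuN+, 9, 6 and 6 of 9 Hox peaks were below 0, with medians of -0.45, -0.18 and -0.48 against -0.21, -0.11 and -0.01 over all peaks, and the signs held after rescaling. In H3K27me3 NeuN-, 5 of 7 were above 0 in each knockout, with medians of 0.38, 0.28 and 0.40 against 0.29, 0.58 and 0.41. After rescaling these were 0.18, -0.19 and 0.13, and the sign flipped in Ogg1-/-.

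The share of reads at Hox peaks did not separate the genotypes. Relative to all reads in peaks outside the repeat peaks on chromosome 2 annotated to Lrrc4c, Hox peaks took 1.94% ± 0.273 (SD, n = 3) of the Suz12 reads in NeuN+ nuclei of WT, 1.57% ± 0.720 in Mutyh-/-, 1.83% ± 0.465 in Ogg1-/- and 1.93% ± 0.547 in DKO. For H3K27me3 in NeuN+ nuclei, the shares were 0.310% ± 0.0650, 0.216% ± 0.0507, 0.273% ± 0.0524 and 0.254% ± 0.0652. In NeuN- nuclei they were 0.300% ± 0.158, 0.295% ± 0.0602, 0.257% ± 0.144 and 0.267% ± 0.136. The libraries of each knockout overlapped those of WT in all 3 tables. Replicate 1 had the lowest share in 4 of 4 genotypes in both tables of NeuN+ nuclei, and in H3K27me3 NeuN+ it also had the highest share of reads at the Lrrc4c repeat, 13.2% to 52.8% against at most 8.79% in the other replicates. In H3K27me3 NeuN-, replicate 2 had the lowest Hox share and the highest share at the repeat in 3 of 4 genotypes. The part of the repeat in the Hox shares was not tested.

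**Figure D5:**
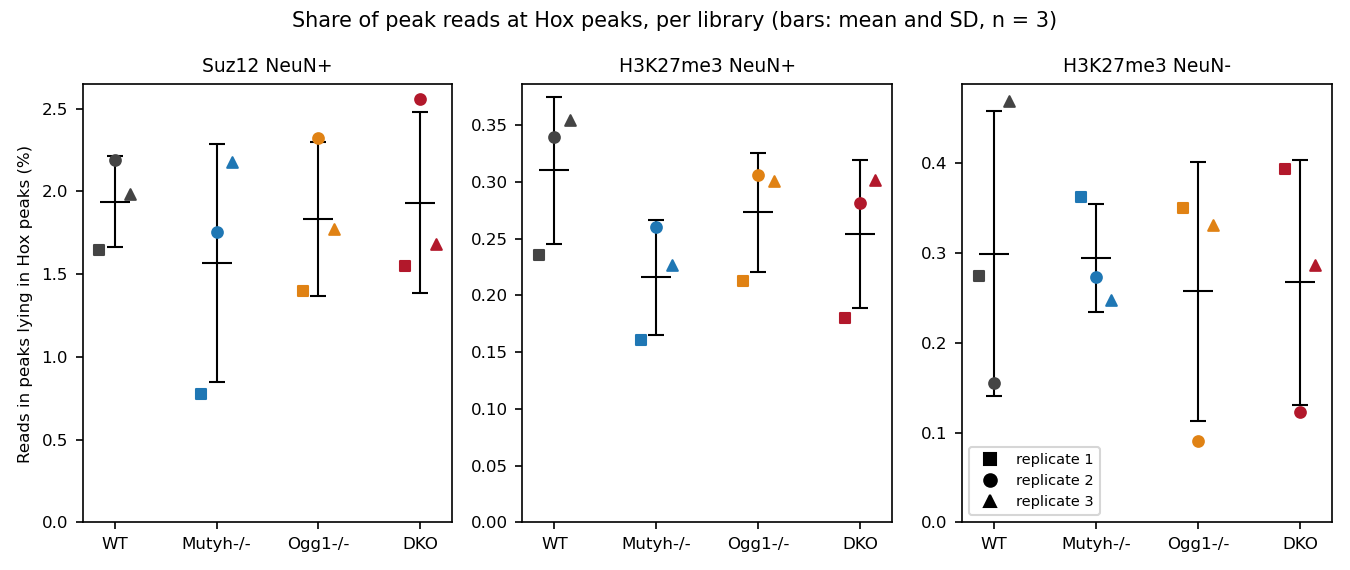
Share of the reads in peaks that lay at Hox peaks (y axis, percent, without the Lrrc4c repeat) in each library, for the 3 tables with Hox peaks. Symbols give the replicate and bars the mean and SD of 3 libraries; each panel has its own y axis, and the genotypes overlap in each.

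The departure of the DKO from the sum of the single knockouts was tested by the same criterion, a contrast chosen after the data were seen. For DKO minus Mutyh-/- minus Ogg1-/- plus WT, 0 of 9 Hox peaks were called in H3K27me3 NeuN+ (3.92% of all peaks), 0 of 19 in Suz12 NeuN+ (5.16%) and 0 of 7 in H3K27me3 NeuN- (2.47%). In Suz12 NeuN+ this count depended on the replicate number. With it as a block, 3 of 19 were called above the sum, Hoxc13 (2.97, SE 1.08, limma p 0.0129), Hoxc9 (2.35, SE 0.90, p 0.0179) and Hoxd9 (1.63, SE 0.73, p 0.0392), with adjusted p of 0.235 to 0.267, while 140 of all 775 peaks were called (18.1%). Whether a knockout effect differed between neurons and non-neuronal cells could not be tested at Hox peaks, since no Hox peak of one fraction overlapped one of the other. The closest case was Hoxa11os, the antisense transcript of Hoxa11, whose Suz12 peaks in both fractions overlap Hoxa11 itself. Its mean was 12.0 ± 7.36 (SD, n = 12) in NeuN+ and 5.25 ± 4.87 (SD, n = 12) in NeuN- nuclei, on scales set separately. Effects in NeuN+ minus effects in NeuN- nuclei were -1.65 in Mutyh-/-, 0.68 in Ogg1-/- and -0.17 in DKO on the log2 scale, with limma adjusted p of 0.967 or more.

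Genes around the Hox system were read from the same fits, in which 2.13% of 68445 tests over all peaks of the 6 tables were called. In contrast to the Hox genes, 33 of 33 genes for Polycomb subunits and 9 of 9 genes for the TALE cofactors of Hox proteins (Pbx, Meis and Pknox) had an H3K4me3 peak in NeuN+ nuclei. Of 234 tests at Polycomb peaks, 1 was called (0.427%), H3K27me3 at Aebp2 in NeuN+ nuclei of Mutyh-/- (log2 fold change -2.27, with 3.78% of all peaks called), where Aebp2 is an accessory subunit of PRC2. Of 54 tests at trithorax genes, which counteract Polycomb, 2 were called (3.70%), both at 1 Suz12 peak of Kmt2a in NeuN- nuclei (-2.30 in Ogg1-/-, with 11.2% of all peaks called, and -2.65 in DKO, with 6.73%). Of 60 tests at Hox cofactors, 1 was called (1.67%), H3K4me3 at Pknox1 in NeuN+ nuclei of DKO (0.88, with 1.46% of all peaks called).

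Regulators upstream of Hox genes and the ParaHox genes had 3 called of 123 tests (2.44%). They included H3K4me3 at Gdf11, a growth factor that sets posterior Hox expression, in Mutyh-/- (-1.18, with 0.911% of all peaks called), and H3K27me3 at Gsx1, a ParaHox gene, in DKO (-1.91, with 3.36%), both in NeuN+ nuclei. Neighbours of the clusters had 1 of 156 (0.641%), H3K27me3 at Skap1 in NeuN- nuclei of Ogg1-/- (2.29, with 4.18%). Homeobox genes outside the clusters had 27 of 1263 (2.14%), 11 higher and 16 lower, beside 1457 of 68445 tests over all peaks of the 6 tables (2.13%) and 2.86% at the Hox peaks. The adjusted p was 0.412 or more for all the calls named here.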

How the data were processed

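ChIP-seq values of 72 libraries in 6 tables were used; input libraries, without a column there, were left out. Bowtie2 was used by the authors for alignment to GRCm38, epic2 for peak calling, DiffBind for counting reads over consensus peaks (called in 2 or more of 3 replicates) and ChIPseeker for assigning peaks to the nearest gene. The deposited values are signal, the reads of a peak over a library factor. Dividing by the smallest step of a library turned 100% of its values into whole reads, within 0.01 read. Assignment to the closest gene sets which peaks count as Hox peaks. Per the submitters' processing notes, DiffBind was version 3.10.1 and ChIPseeker 1.36.

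Each table was fitted whole with limma-trend (limma 3.58.1, R 4.3.3) on log2(signal + 1), with the genotype as the only term and 12 libraries in 1 fit. The study used edgeR between genotypes; edgeR 4.0.16 on the recovered reads was an alternative, because the deposited signal is not raw counts. Adjusted p is the Benjamini-Hochberg value over all peaks of a table. In the tables with Hox peaks the prior degrees of freedom of limma were infinite, so a peak's own spread did not enter its p. Alternatives were a pseudocount of 4, a filter on the lowest 25% of peaks, robust empirical Bayes, TMM factors, a replicate block and leaving out each library. The fits were tested on simulated data. The members, gene lists and tests were chosen with earlier results of these data known.

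Values in every library were given for Hox peaks called with all 3 knockout libraries on one side of WT and for the highest Hox peak of each table. They were also given for the Hox peak with the smallest p where none was called that way. Of the genes with peaks of 1 antibody in both fractions, Hoxb13 and Hoxc4 were covered by their closest pair and Hoxb1 by its NeuN- peak. Their other peaks in NeuN+ nuclei were not given by library. Replicate numbers come from the labels. Same-numbered libraries deviated together, with correlations over 0.1 in all 3 pairs, only for Mutyh-/- and WT in Suz12 NeuN+ (0.119 to 0.388). In that table, 2 of 3 pairs were over 0.1 for Ogg1-/- (0.0714 to 0.285) and for DKO (0.0396 to 0.213). The same held for DKO in H3K27me3 NeuN- (0.0416 to 0.153). The main fit did not pair same-numbered libraries in any table, and only the replicate block took the number into account. CpG sites, GC content and sequences were read from the GRCm38 genome. Intervals were not given; few reads per peak limit the precision. The values of 1 called gene among the upstream regulators are not reported here.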

Additional observations from a re-analysis of the deposited data

How the results depend on the processing

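The 3 calls at Hox peaks rested on few libraries. One Hox peak was called in each of the 3 tables; leaving out each library in turn gave 0 to 2 in each. In H3K27me3 NeuN+, 0 were called without WT replicate 2, WT replicate 3 or Mutyh-/- replicate 2, and 2 without DKO replicate 2 or 3. In Suz12 NeuN+, 0 were called without WT replicate 1, WT replicate 3, DKO replicate 2 or DKO replicate 3, and 2 without Ogg1-/- replicate 2. In H3K27me3 NeuN-, 0 were called without Mutyh-/- replicate 3 and 2 without WT replicate 3. The log2 differences lay between -1.88 and -1.10 for the peak annotated to Hoxa2, between 2.17 and 2.57 for Hoxb1 and between 2.12 and 3.70 for Hoxb13. No alternative reversed a named call.

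TMM factors gave 2 calls in H3K27me3 NeuN+ and 2 in Suz12 NeuN+. Without the lowest 25% of peaks, 0 were called in Suz12 NeuN+ and 0 in H3K27me3 NeuN-, since the peaks of Hoxb13 and Hoxb1 were then not tested. edgeR gave 0 calls in Suz12 NeuN+ and 2 in H3K27me3 NeuN-, where it added Hoxb1 in DKO. The replicate block gave 2 calls in H3K27me3 NeuN+, adding the peak annotated to Hoxa2 in DKO, and 4 in Suz12 NeuN+, adding Hoxb7, Hoxc9 and Hoxc13 as lower in Ogg1-/-, where it called 98 instead of 29 of all peaks. For Mutyh-/- in Suz12 NeuN+, where same-numbered libraries deviated together and the main fit left this out, the block called 0 Hox peaks as before. It called 103 instead of 40 of all peaks. For the departure of the DKO from the sum of the single knockouts, whose alternatives were added after the data were seen, 0 Hox peaks were called in Suz12 NeuN+, against 3 with the replicate block (140 instead of 40 of all peaks) and 1 with a pseudocount of 4. Leaving out a library gave 0 to 1, with 1 called without Mutyh-/- replicate 3, Ogg1-/- replicate 1, Ogg1-/- replicate 2 or DKO replicate 1. The other alternatives, and all in both H3K27me3 tables, called 0. With the Lrrc4c repeat in the denominator, the median share of reads at Hox peaks fell from 1.76% to 1.20% for Suz12 NeuN+ and from 0.281% to 0.117% for H3K27me3 NeuN-. Leaving out a library gave medians from 0.261% to 0.282% in H3K27me3 NeuN+, from 1.75% to 1.77% in Suz12 NeuN+ and from 0.275% to 0.286% in H3K27me3 NeuN-. The causes were not tested. The tables without a Hox peak and the comparison between fractions gave no value under any alternative. Depth limits all of this: library medians of 1 to 17 reads per peak leave small changes at single Hox peaks undetectable. Large changes can be missed too. Suz12 at Hoxc13 in Ogg1-/- had a log2 fold change of -1.79 (SE 1.14) and was not called.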
